A study of Mus musculus with 28 samples.

Results

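*Aqp3*, *Gsta4*, *Fbxo2*, *Chil3*, *S100a8* and *S100a9* are 6 of the 24089 genes measured by RNA-seq in mouse CD4+ T cells that were activated in the presence of TGF-β, of IL-4, of both or of neither. They were chosen by their rise under TGF-β + IL-4 over control in wild-type cells. *Aqp3*, *Gsta4*, *Fbxo2*, *Chil3* and *S100a8* had the 5 largest log2 differences between those cultures in 4 libraries of 2 mice, and *S100a9* was added as the partner of *S100a8*. That rise is therefore a description below. The question asked was which of the cytokines, alone, moved each gene and whether the movement differed in *Tgfbr1* KO cells.

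Naïve CD4+ CD62L+ T cells were isolated with magnetic beads from the spleens and lymph nodes of *Tgfbr1* f/f Ert2-cre+ mice of both sexes, 8 to 10 weeks old and of C57BL/6 background, and were activated with plate-bound anti-CD3 and soluble anti-CD28. WT cells came from mice that had received oil, and KO cells from mice in which tamoxifen had activated the Cre recombinase to delete *Tgfbr1*. The titles of the DNase-seq libraries state oil or tamoxifen, whereas those of the RNA-seq libraries give WT or KO alone. For RNA-seq this source is taken from the paper's description of its WT and KO cells. The paper also lists *Tgfbr1* f/f Cd4-cre+ mice and does not name the line used for RNA-seq. With the Ert2-cre source the recombinase is not restricted to T cells, so every tissue of the KO mice could have lost the receptor. Both genotypes then carry the same transgene and floxed allele. They differ in tamoxifen and in active Cre as well as in *Tgfbr1*, so these cannot be told apart in any difference between KO and WT. The 8 groups were WT and KO cells in control medium, with TGF-β1, with IL-4 and with TGF-β1 + IL-4. Each had 3 libraries numbered 1 to 3 within the genotype, 24 in all. A number is read here as 1 mouse, which the titles do not state, so each value given per mouse rests on that reading. DNase-seq was done on 1 WT and 1 KO library each in control medium and with TGF-β + IL-4. Nothing in the sources used here describes more than 1 culture per mouse and condition.

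The column headings of the RNA-seq table conflict with the per-library read counts in the study's supplement. Of the 8 libraries listed there, all WT of mice 1 and 3, all 8 matched by their pattern of undetected genes the column at their place in library-number order, and 6 of these columns carry the heading of another library. The match held for at least 99.8% of the genes, against at most 85.8% for any other column. The columns were therefore read by position, columns 1 to 12 as WT and 13 to 24 as KO, with the cultures of each mouse in the order control medium, TGF-β alone, IL-4 alone and both. For the 4 WT libraries of mouse 2 and the 12 KO libraries no counts were listed, so their reading extends the order and was not identified on its own. Heading and order name the same library in 4 of the 24 columns. Read under the headings instead, limma called 0 genes in each of the 11 comparisons described here, with 93 to 3284 genes at an unadjusted p under 0.05.

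TGF-β binds a receptor pair in which TGF-β receptor I, the product of *Tgfbr1*, phosphorylates SMAD2 and SMAD3, which enter the nucleus and bind DNA with partner factors. IL-4 acts through its own receptor and the transcription factor STAT6. Together they turn activated CD4+ T cells into IL-9 producing Th9 cells, whereas TGF-β without IL-4 favours *Foxp3*-expressing regulatory T cells and IL-4 without TGF-β favours Th2 cells. The 6 genes are not classical helper T cell genes: *Aqp3* encodes a channel for water, glycerol and hydrogen peroxide, *Gsta4* a glutathione S-transferase that detoxifies lipid peroxidation products, *Fbxo2* a sugar-binding subunit of a ubiquitin ligase, *Chil3* a secreted chitinase-like protein (Ym1) known from alternatively activated macrophages, and *S100a8* and *S100a9* the calcium-binding pair calprotectin, abundant in neutrophils.

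Levels are RPKM, reads scaled to transcript length and library size. The relative depth of the libraries, from the steps between low values, ran from 0.461 to 1 of the deepest, with a median of 0.70, and total read numbers are unknown. In the same steps the genes rested on 44 to 6035 reads for *Aqp3*, 4 to 448 for *Gsta4*, and between 0 and a highest number of 762 for *Fbxo2*, 577 for *Chil3*, 712 for *S100a8* and 359 for *S100a9*. All 8 T cell markers were present, with a sum of 1373 to 1843 RPKM per library. *Tgfbr1* itself was at 3.02, 3.25 and 3.31 RPKM in WT control mice 1 to 3 and at 2.32, 2.55 and 3.05 in KO control, so the groups overlapped. Under TGF-β it was at 13.9 to 14.5 in WT, above every KO library, which lay between 2.37 and 3.24. Under IL-4 it was at 3.48 to 3.94 in WT and 2.92 to 3.75 in KO, and under TGF-β + IL-4 at 17.6 to 20.7 in WT and 3.35 to 5.18 in KO. The KO libraries still held *Tgfbr1* reads in every culture, and the table does not separate deleted from remaining exons.

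The genes fell into distinct patterns in WT cells. *Aqp3* and *Fbxo2* rose under TGF-β alone, with no rise measured under IL-4 alone. *Gsta4* rose under each cytokine alone and stood highest under both. *Chil3* lay above control in every library with either cytokine alone, at low levels, and was highest under both. *S100a8* and *S100a9* rose under TGF-β, with scattered values under IL-4, and stood highest under both.

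**Figure D1:**
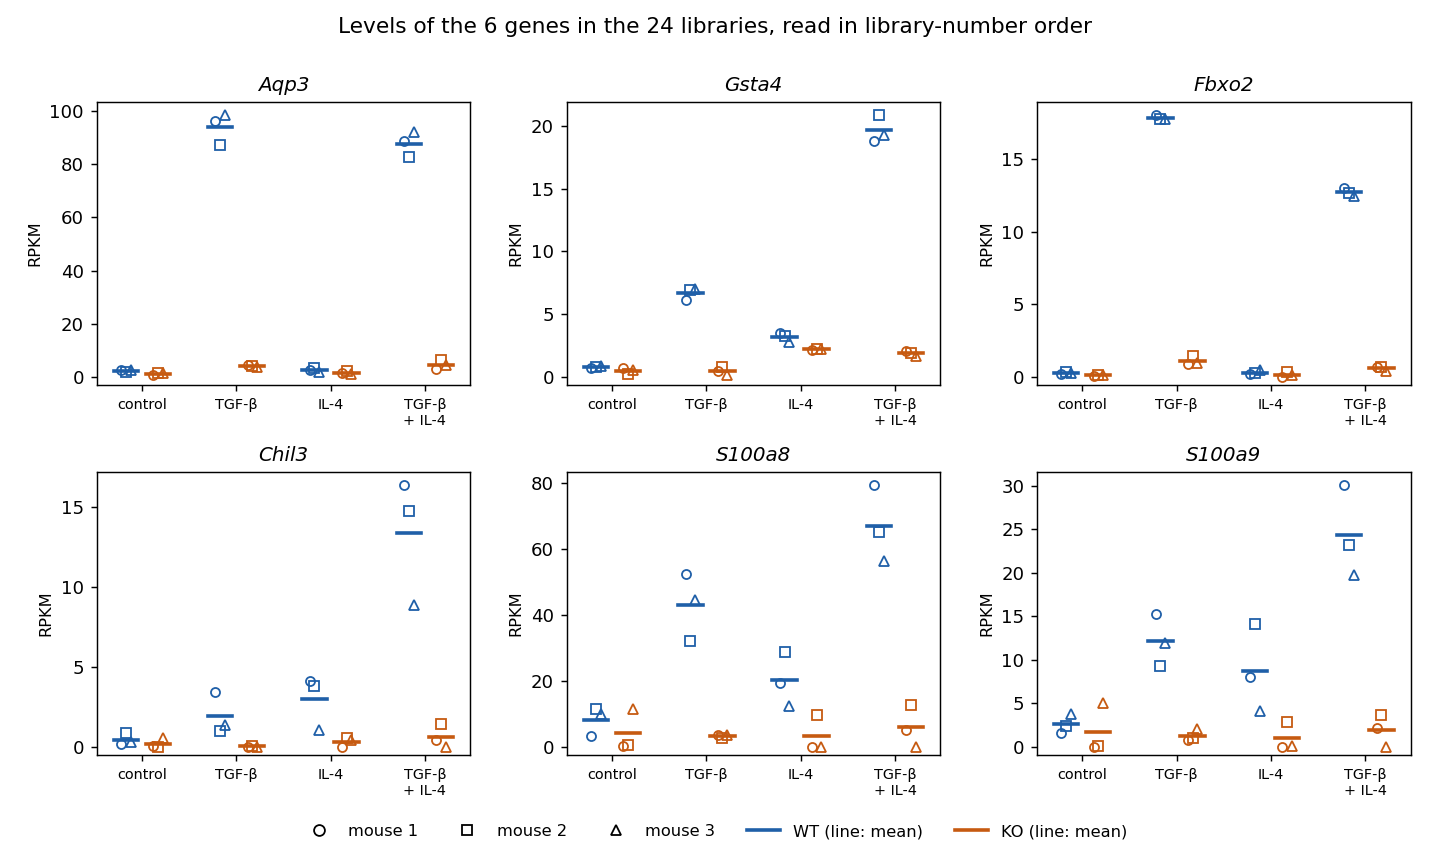
Levels of the 6 genes (y axis, RPKM) in the 4 culture conditions (x axis). Each point is 1 library, with a symbol for each of the 3 mice per genotype, blue for WT and orange for KO, and the short line is the mean of 3. *Aqp3* and *Fbxo2* are high in WT wherever TGF-β is present, *Gsta4* and *Chil3* are highest in WT under both cytokines, and *Gsta4* under IL-4 is above control in both genotypes.

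Tests were made with limma on log2(RPKM + 1), and a gene counted as called where its fold change exceeded 1.5 and its p, adjusted by Benjamini-Hochberg, was below 0.01. A change on this scale understates that of a low gene. The comparison of WT TGF-β with WT IL-4 used none of the libraries by which the genes were chosen. All 6 genes were tested there, and 3 were called higher under TGF-β, *Aqp3*, *Fbxo2* and *Gsta4*, where 3.98% of the 9766 genes tested were called higher. *Fbxo2* passed the minimum level of 1 RPKM only through its TGF-β libraries. In WT TGF-β against WT control, 5 of the 6 were called higher, all but *Chil3*, against 3.42% of 9726 genes. In WT IL-4 against WT control, *Gsta4* was called higher among the 5 tested, against 0.930% of 9680 genes, and *Fbxo2* was below the minimum. These last 2 comparisons share their control libraries of mice 1 and 3 with the contrast that chose the genes, and members below 1 RPKM in control passed the minimum only through the cytokine libraries, *Gsta4*, *Fbxo2* and *Chil3* under TGF-β and *Gsta4* and *Chil3* under IL-4. In mouse 2, which had no part in the choice, the log2 difference of TGF-β from control was 4.88 for *Aqp3*, 3.81 for *Fbxo2*, 2.12 for *Gsta4*, 1.60 for *S100a9*, 1.41 for *S100a8* and 0.10 for *Chil3*.

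**Figure D2:**
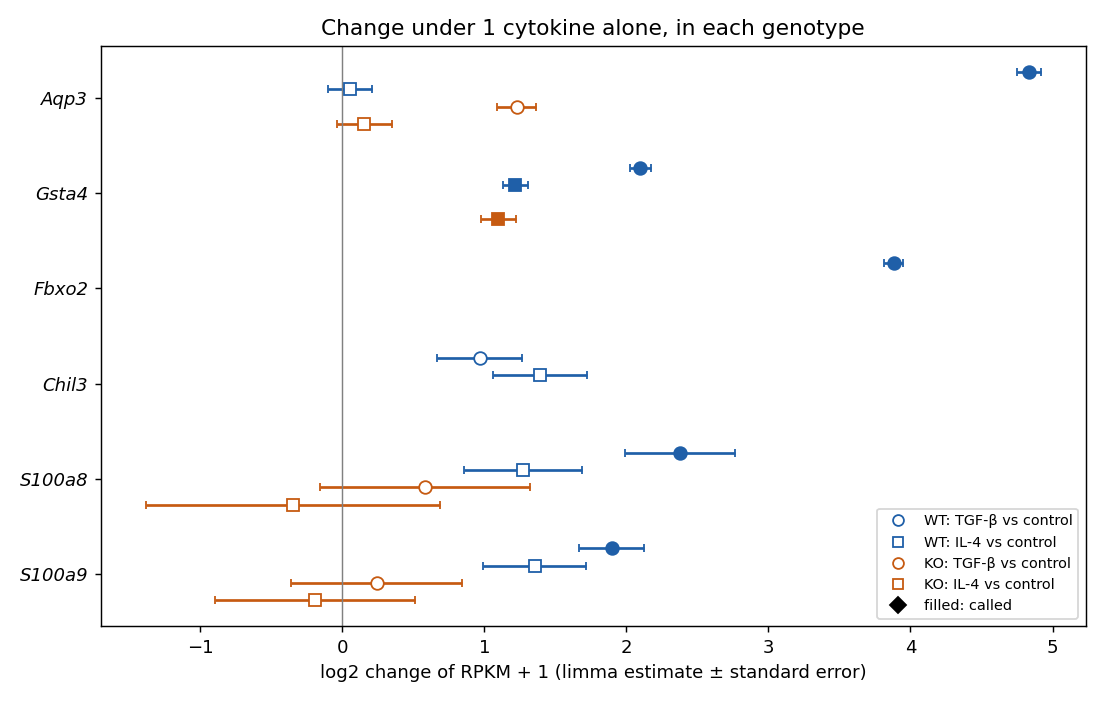
Change of each gene under TGF-β alone (circles) or IL-4 alone (squares) against control (x axis, log2 of RPKM + 1, limma estimate with its standard error) in WT (blue) and KO (orange) cells, 3 libraries per group. Filled symbols passed the test, and a gene below the minimum level in a comparison has no symbol. The WT TGF-β symbols of *Aqp3* at 4.83 and *Fbxo2* at 3.88 lie farthest to the right, and both *Gsta4* IL-4 symbols are filled.

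*Aqp3*, on chromosome 4 of mm9 (minus strand, 41039755 to 41045216), was the highest of the 6 genes in WT cells under TGF-β. It lay between 1.99 and 2.60 RPKM in the 3 WT controls, between 1.72 and 3.28 under IL-4, between 87.4 and 98.5 under TGF-β and between 82.7 and 92.1 under both. The order of the group means was TGF-β, both, IL-4 and control, and neither of the first 2 nor of the last 2 was separated from its neighbour in all libraries. Against IL-4, TGF-β raised it by 4.78 ± 0.14 on the log2 scale (estimate ± SE, limma, adjusted p = 1.39e-07). IL-4 alone moved it by 0.05 ± 0.16 (adjusted p = 0.90). Within each mouse it was lower under both than under TGF-β, by 0.08 to 0.12 on the log2 scale as a description.

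The DNase-seq lists gave 2 DNase I hypersensitive sites (DHSs, stretches of open chromatin) at *Aqp3*, at the transcript start and in an intron 0.88 kb after it, in WT cells with both cytokines. Their MACS fold enrichments were 4.28 and 5.21, with ranks of 24416 and 17198 of 33880 in that list. Neither was among the 44298 DHSs of WT control or the 27145 of KO cells with both cytokines, but both were in the KO control list at fold enrichments of 3.07 and 2.93, near the foot of its 33665 DHSs. *Aqp3* RNA in KO control cells lay between 0.78 and 1.49 RPKM, so a listed DHS and a high RNA level did not coincide there. With 1 library per condition and lists of unequal length, none of these differences has a replicate check. The 201 bases around the intron summit (chr4:41044237-41044437) and the 172 bases before exon 1 around the summit at the start (chr4:41045217-41045388) are shown on the gene's strand, with the SMAD-binding letters CAGAC in capitals.
Aqp3 intron: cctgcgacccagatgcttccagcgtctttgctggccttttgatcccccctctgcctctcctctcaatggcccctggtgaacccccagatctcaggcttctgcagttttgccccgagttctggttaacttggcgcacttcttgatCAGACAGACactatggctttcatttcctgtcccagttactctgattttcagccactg
Aqp3 start: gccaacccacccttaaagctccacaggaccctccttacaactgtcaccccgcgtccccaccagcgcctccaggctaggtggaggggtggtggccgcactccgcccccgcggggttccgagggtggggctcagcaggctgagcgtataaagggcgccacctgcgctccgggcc
CAGAC was found overlapping itself in 2 copies at the intron summit and on neither strand of the window before the start. On either strand it was in 41.8% of all 33880 windows of 201 bases at the summits listed for WT cells with both cytokines, so a match is common.

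*Fbxo2* encodes FBXO2, which recognises glycans on misfolded glycoproteins and hands them to the SCF ubiquitin ligase. The gene lies on chromosome 4 of mm9 (plus strand, 147534730 to 147540533). In WT control mice 1 to 3 it was at 0.218, 0.346 and 0.281 RPKM, and under IL-4 at 0.182, 0.246 and 0.483. Under TGF-β it was at 18.1, 17.8 and 17.8, and under both cytokines at 13.02, 12.7 and 12.4. The control and IL-4 libraries overlapped, every TGF-β library stood above every library with both cytokines, and the 3 mice lay close together in both high groups. TGF-β raised *Fbxo2* over IL-4 by 3.86 ± 0.09 on the log2 scale (limma, adjusted p = 6.66e-08) and over control by 3.88 ± 0.07 (adjusted p = 9.28e-08). In both comparisons *Fbxo2* passed the minimum level only through its TGF-β libraries, and the control libraries of mice 1 and 3 had a part in its choice. Adding IL-4 to TGF-β went with a level lower by 0.44 to 0.48 on the log2 scale in each of the 3 WT mice, given as a description because the libraries with both cytokines chose the gene.

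The chromatin near *Fbxo2* differed from that at *Aqp3* in being listed in every condition. DHSs with summits at -0.50 to -0.47 kb and at -8.67 to -8.55 kb from the start were in all 4 lists. The nearer had fold enrichments of 10.2 in control and 6.54 with both cytokines for WT, and of 7.76 and 5.88 for KO. A DHS over an exon was in 3 lists, all but KO control, and a DHS 6.64 kb after the start was listed in WT with both cytokines alone. The nearer upstream DHS is shown at its WT TGF-β + IL-4 summit (chr4:147534128-147534328, plus strand), with CAGAC in capitals.
Fbxo2 upstream: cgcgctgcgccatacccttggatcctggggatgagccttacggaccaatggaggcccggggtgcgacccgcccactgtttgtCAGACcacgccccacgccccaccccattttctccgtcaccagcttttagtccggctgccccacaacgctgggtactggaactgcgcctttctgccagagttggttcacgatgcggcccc
The window held CAGAC once.

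*Gsta4* encodes an enzyme that conjugates glutathione to 4-hydroxynonenal, a product of lipid peroxidation. The gene lies on chromosome 9 of mm9 (plus strand, 78039773 to 78057155). In WT mice 1 to 3 it was at 0.718, 0.823 and 0.845 RPKM in control, at 3.54, 3.27 and 2.76 under IL-4, at 6.16, 6.92 and 6.999 under TGF-β and at 18.8, 20.9 and 19.3 under both. No 2 of the 4 groups overlapped. It was the only one of the 6 genes called under IL-4 alone, with a change of 1.22 ± 0.09 on the log2 scale (limma, adjusted p = 1.89e-04), which missed the threshold without mouse 1 (1.13, adjusted p = 0.0161). TGF-β alone gave 2.10 ± 0.07 over control (adjusted p = 1.89e-06) and 0.88 ± 0.09 over IL-4 (adjusted p = 1.67e-04). In both comparisons with control *Gsta4* passed the minimum level only through its cytokine libraries. The control libraries of mice 1 and 3 also had a part in its choice.

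Both cytokines together gave more *Gsta4* than the gains under each alone added up to. Counted in RPKM above the control of the same mouse, TGF-β gave 5.44 to 6.15 and IL-4 1.91 to 2.82, and both gave 18.1 to 20.0, which was 2.18 to 2.35 times the sum. This is a description over 3 mice, as the libraries with both cytokines chose the gene. For comparison, the gain under both was 0.917 to 0.941 of the sum for *Aqp3* and 0.688 to 0.719 for *Fbxo2*.

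**Figure D3:**
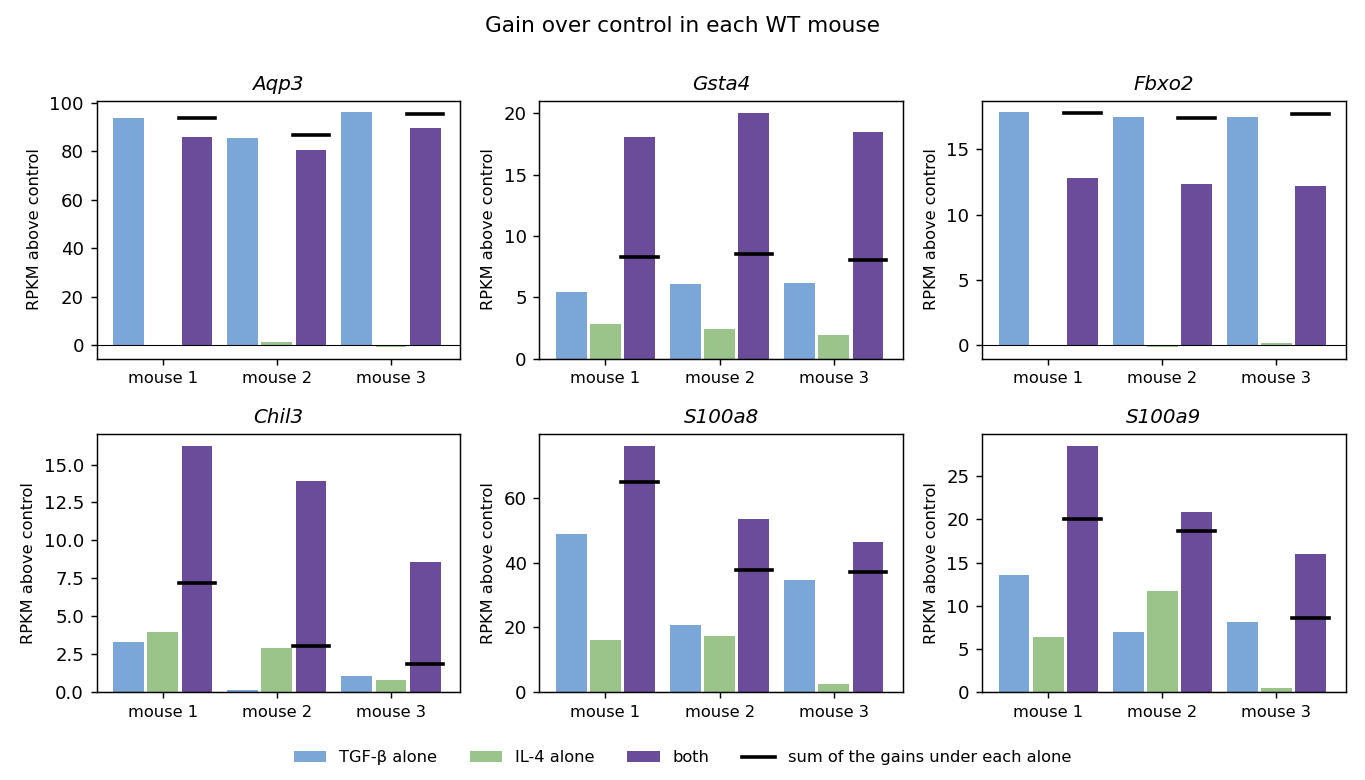
Gain over the control of the same mouse (y axis, RPKM) for each of the 3 WT mice (x axis) under TGF-β alone, IL-4 alone and both. Bars are single libraries, and the black line over the bar of both cytokines marks the sum of the gains under each alone. The bar stands above the line in all 3 mice for *Gsta4*, *Chil3*, *S100a8* and *S100a9*, and below it in all 3 for *Aqp3* and *Fbxo2*.

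The transcript start of *Gsta4* and an intron site 2.15 to 2.17 kb after it, were DHSs in all 4 lists. The start DHS had fold enrichments of 8.83 in control and 6.38 with both cytokines for WT, and of 5.88 and 5.04 for KO. Its order of enrichment was therefore not the order of the RNA. The 108 bases before exon 1 (chr9:78039665-78039772, plus strand) are shown with the letters TGANTCA, the AP-1 site read in BATF and JUN binding, in capitals.
Gsta4 start: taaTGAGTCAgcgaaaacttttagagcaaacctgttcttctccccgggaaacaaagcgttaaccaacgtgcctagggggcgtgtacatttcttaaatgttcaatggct
The window held TGANTCA once and neither CAGAC nor the spaced palindrome that STAT6 prefers (TTC and GAA with 4 bases between). TGANTCA, which was looked for after this sequence had been seen, was in 10.7% of the windows at summits and the STAT6 palindrome in 5.99%. Those windows have 201 bases, more than the 108 shown here, and a longer window holds a match more often. Both read the same on either strand.

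*Chil3*, listed as *Chi3l3* in the GENCODE annotation of mm9 (chromosome 3, minus strand, 105950472 to 106022425), stood highest in WT cells under both cytokines. In WT mice 1 to 3 it was at 0.155, 0.854 and 0.301 RPKM in control, at 3.43, 0.986 and 1.36 under TGF-β, at 4.10, 3.78 and 1.07 under IL-4 and at 16.4, 14.7 and 8.88 under both. The TGF-β and IL-4 libraries overlapped, and as a description all of them stood above every control. Every library with both cytokines stood above every other. Neither single cytokine passed the test: TGF-β gave 0.97 ± 0.30 on the log2 scale over control (limma, adjusted p = 0.0592), IL-4 gave 1.39 ± 0.33 (adjusted p = 0.0538), and TGF-β differed from IL-4 by -0.43 ± 0.38 (adjusted p = 0.47). Without mouse 2 the change under TGF-β passed (1.40, adjusted p = 0.00307) and without mouse 3 that under IL-4 passed (1.75, adjusted p = 0.00557). The gain under both was 2.25, 4.54 and 4.68 times the sum of the single gains in mice 1 to 3. This gain and the high level under both are descriptions, as libraries with both cytokines chose the gene.

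*Chil4*, a near-identical neighbour of *Chil3*, could share its reads and followed it at a lower level. *Chil4* was at 0.172 to 0.763 RPKM with TGF-β in WT cells, 0.113 to 0.925 with IL-4 and 1.70 to 2.80 with both, and at or below 0.138 in all 12 KO libraries. How reads were divided between the pair is not given in the sources used here. The summed level of 15 monocyte and macrophage markers was 67.0 to 83.1 RPKM in WT control, 86.7 to 108 under TGF-β, 68.5 to 97.1 under IL-4 and 90.3 to 111 under both. In KO it was at 23.4 to 36.0 in control, 27.1 to 45.2 under TGF-β, 36.7 to 46.0 under IL-4 and 35.4 to 87.0 under both, where the median was 38.5. Most of this sum was *Ly6c2*, *Fcer1g* and *Tyrobp*, with means over the 24 libraries of 31.0, 12.8 and 9.09 RPKM. *Csf1r*, *Cd14* and *Fcgr1* stayed at or below 0.433, 0.547 and 0.0762. *Ly6c2*, *Fcer1g*, *Tyrobp* and *Spi1* were called lower in KO than in WT, as 4 of 8 markers tested under TGF-β (6.53% of all genes) and 4 of 6 under IL-4 (2.61% of all genes). Their part in the level of *Chil3* was not tested. A DHS in the 2 cytokine lists but in neither control list had its summit at -3.98 kb from the inner of the 2 annotated *Chil3* starts in WT and at -3.87 kb in KO. It lies in an intron of the longer transcript, with fold enrichments of 4.28 in WT and 3.94 in KO. It is shown at its WT TGF-β + IL-4 summit (chr3:105974359-105974559, minus strand), with the reverse complement of CAGAC in capitals.
Chil3 upstream: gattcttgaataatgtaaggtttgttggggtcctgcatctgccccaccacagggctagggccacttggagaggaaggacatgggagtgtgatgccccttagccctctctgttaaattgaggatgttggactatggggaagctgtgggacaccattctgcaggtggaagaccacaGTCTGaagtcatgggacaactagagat

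*S100a8* and *S100a9* lie beside each other on chromosome 3 of mm9, *S100a8* on the plus strand (90472993 to 90473956) and *S100a9* on the minus strand (90496554 to 90499643), and their proteins form the calprotectin heterodimer. *S100a8* in WT mice 1 to 3 was at 3.20, 11.4 and 9.89 RPKM in control, at 52.2, 32.0 and 44.5 under TGF-β, at 19.1, 28.6 and 12.5 under IL-4 and at 79.3, 64.9 and 56.4 under both. Each cytokine group lay above the controls, and the TGF-β libraries lay above the IL-4 libraries. *S100a9* was at 1.61, 2.40 and 3.72 in control, at 15.2, 9.31 and 11.9 with TGF-β, at 7.99, 14.1 and 4.14 with IL-4 and at 30.1, 23.2 and 19.7 under both. Its TGF-β and IL-4 libraries overlapped.

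TGF-β alone was called for both genes, with 2.38 ± 0.39 on the log2 scale for *S100a8* (limma, adjusted p = 0.00389) and 1.90 ± 0.23 for *S100a9* (adjusted p = 8.98e-04). The call of *S100a8* was lost without mouse 3 (adjusted p = 0.0209), without a minimum level (adjusted p = 0.0164) and with all 24 libraries in 1 fit (adjusted p = 0.0688), and that of *S100a9* without mouse 1 (adjusted p = 0.0133) and in the fit of 24 (adjusted p = 0.0346). IL-4 alone was called for neither, with 1.27 ± 0.42 for *S100a8* (adjusted p = 0.15) and 1.35 ± 0.36 for *S100a9* (adjusted p = 0.0816), and for *S100a9* it passed without mouse 3 (1.97, adjusted p = 0.00635). TGF-β stood above IL-4 by 1.11 ± 0.27 for *S100a8* (adjusted p = 0.0173), which passed with the mouse as a replicate block (adjusted p = 0.00912) and without mouse 2 (1.58, adjusted p = 1.76e-04). For *S100a9* this difference was 0.54 ± 0.34 (adjusted p = 0.29), and without mouse 2 it passed (1.09, adjusted p = 0.00885).

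Some granule genes of neutrophils moved with this pair. Of the 14 neutrophil markers 13 were in the table and 6 were tested in WT TGF-β against control. There limma called *Ngp* (1.84 ± 0.35), *Elane* (1.18 ± 0.19) and *Lcn2* (1.05 ± 0.20) higher, and not *Camp* (1.19 ± 0.30, adjusted p = 0.028). Of all 9726 genes tested there 3.42% were called higher. In WT IL-4 against control 4 markers were tested, so markers low without TGF-β could pass the minimum through their TGF-β libraries. In WT mice 1 to 3 *Ngp* was at 0.232, 1.16 and 2.22 RPKM in control, at 9.50, 4.59 and 5.73 with TGF-β, at 1.74, 5.13 and 1.32 with IL-4 and at 7.63, 9.13 and 6.44 under both. The KO library of mouse 3 in control medium, which had the highest *S100a8* (11.3) and *S100a9* (4.96) of its group, also had its highest *Ngp* (2.80), *Camp* (1.56) and *Lcn2* (1.10). The KO libraries of mouse 2 under IL-4 and under both, at 9.54 and 12.5 for *S100a8*, had *Ngp* at 1.20 and 3.13, and the 3 KO libraries with *S100a8* at 0 had *Ngp* at 0. *Ngp* was also at 0 in the KO control library of mouse 2, where *S100a8* was at 0.526. In the KO libraries with *Ngp* detected, *S100a8* was 2.96 to 21.9 times *Ngp*. In KO against WT under TGF-β 7 were tested and 3 called lower, *Ngp* (-2.52), *Camp* (-1.999) and *Lcn2* (-1.29), against 6.53% of 9687 genes. Markers low in KO could pass the minimum there through their WT libraries. *Elane* was not among those called lower. The sum of the 13 markers, most of it *Cxcr2*, was 35.0 to 47.9 RPKM in WT control and 39.7 to 55.5 in WT TGF-β, and 25.2 to 33.4 in KO control and 20.1 to 28.9 in KO TGF-β. The highest level over the 24 libraries was lowest for the macrophage marker *Fcgr1*, at 0.0762. It was 0.127 for *Mmp8*, 0.1315 for *Fcnb*, 0.433 for the macrophage marker *Csf1r* and 0.513 for *Retnlg*. At the upper end it was 7.26 for *Elane*, 9.50 for *Ngp*, 16.7 for *Lyz2*, 16.9 for *Tyrobp*, 26.7 for *Fcer1g* and 53.7 for *Ly6c2*. No marker of the neutrophil or monocyte list was at 0 in all 24, but *Fcgr1* was at 0 in 19 and *Fcnb* in 20. The part of other cell types in these results was not tested, and in bulk RNA fewer cells of a type cannot be told apart from less RNA per cell.

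**Figure D4:**
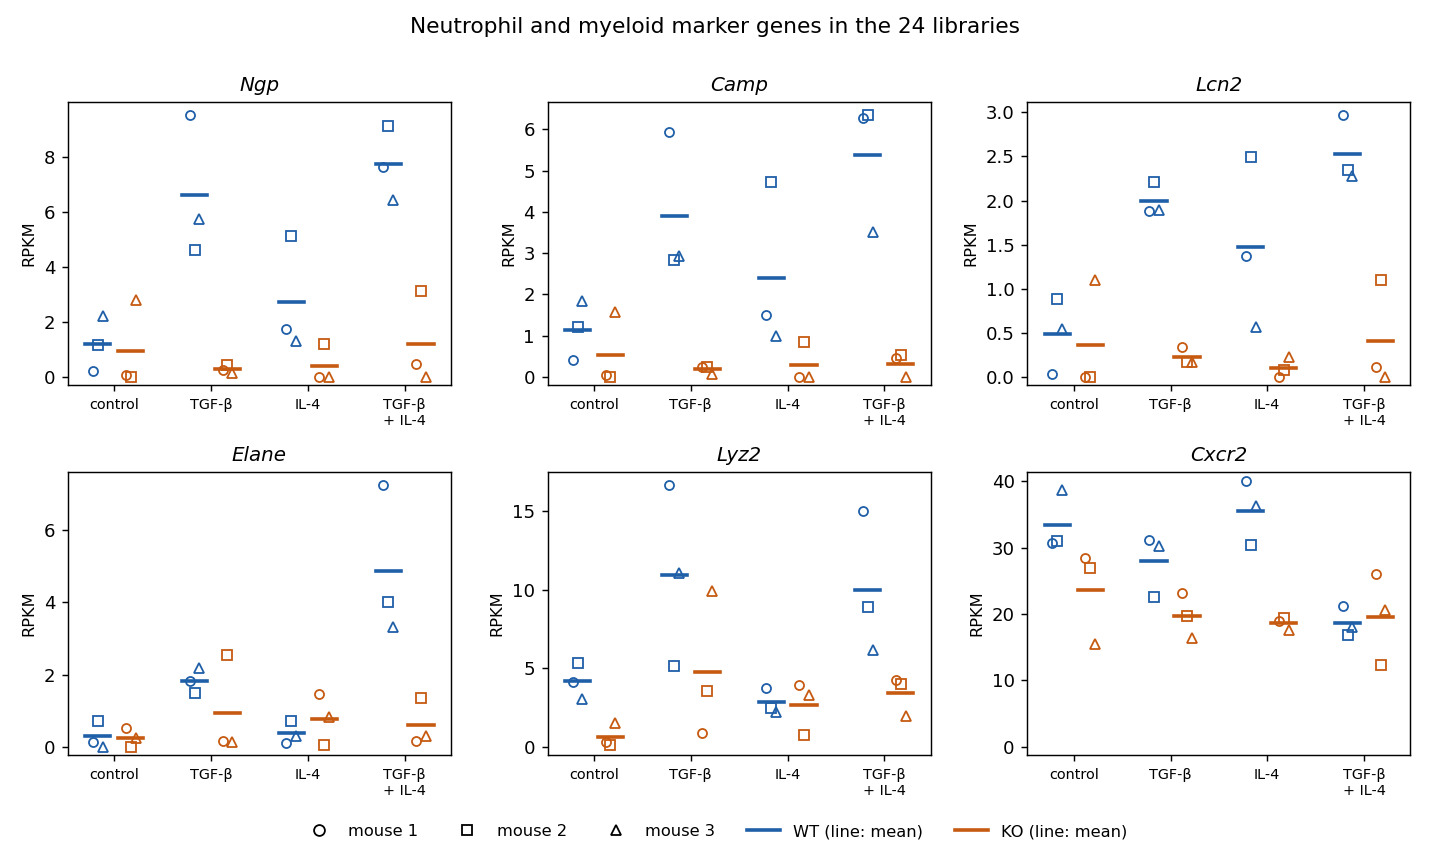
Levels (y axis, RPKM) of 4 neutrophil granule genes, *Lyz2* and *Cxcr2* in the 4 culture conditions (x axis), drawn as for the 6 genes above with 1 point per library. *Ngp* and *Camp* follow the order of *S100a8* and *S100a9*, with the KO control library of mouse 3 above the other KO control libraries, whereas *Cxcr2* is expressed in all 24 libraries.

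No DHS lay within 10 kb of the start of either gene in any of the 4 lists, whereas 55.0% to 60.2% of the 22380 protein-coding genes had one that near. Their promoters, 250 bases before the start, are taken from RefSeq (GRCm38.p6, chr3:90668821-90669070 on the plus strand and chr3:90695722-90695971 on the minus strand) and shown because the pair moved together, with CAGAC and its reverse complement in capitals.
S100a8 promoter: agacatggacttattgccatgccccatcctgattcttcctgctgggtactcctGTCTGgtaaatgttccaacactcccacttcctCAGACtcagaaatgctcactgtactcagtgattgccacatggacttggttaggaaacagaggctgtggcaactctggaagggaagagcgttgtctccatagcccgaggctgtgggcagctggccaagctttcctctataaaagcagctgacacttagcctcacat
S100a9 promoter: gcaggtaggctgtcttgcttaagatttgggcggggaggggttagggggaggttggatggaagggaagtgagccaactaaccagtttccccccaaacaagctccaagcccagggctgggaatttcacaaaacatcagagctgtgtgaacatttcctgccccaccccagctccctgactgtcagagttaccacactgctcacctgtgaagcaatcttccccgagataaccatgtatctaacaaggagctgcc
The *S100a8* promoter held CAGAC once on each strand and the *S100a9* promoter on neither, where 42.2% of 32851 RefSeq promoters held it. Neither held the STAT6 palindrome, which was in 5.85% of these promoters.

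**Figure D5:**
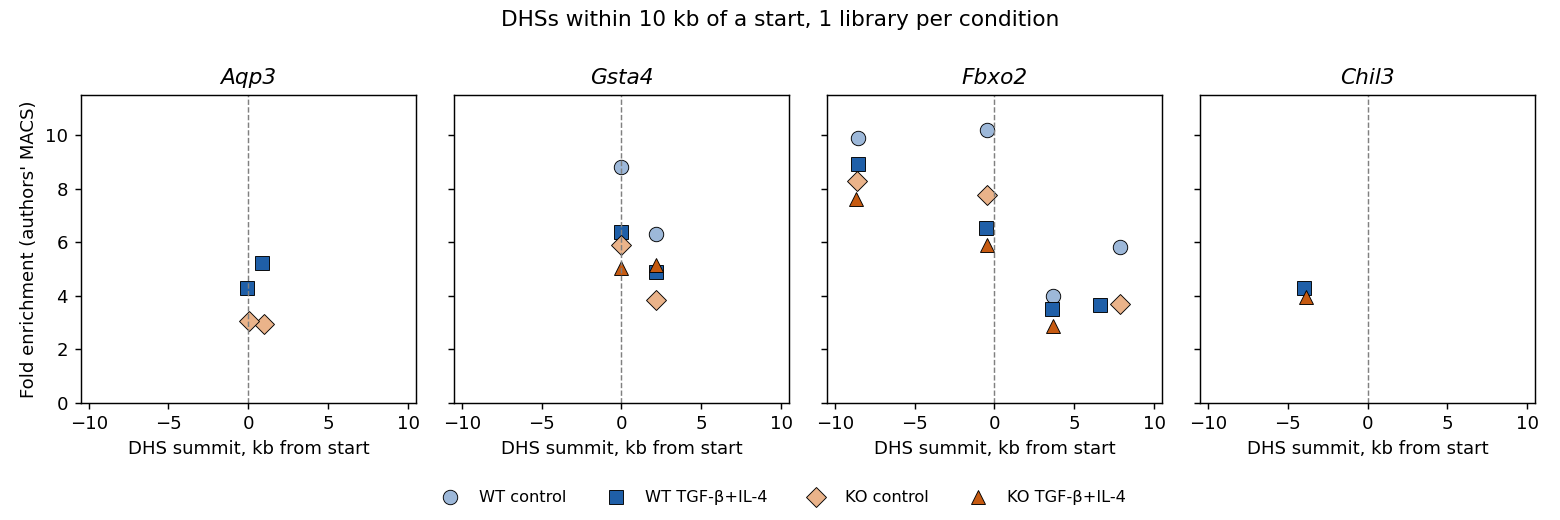
MACS fold enrichment (y axis) of each DHS within 10 kb of the start of *Aqp3*, *Gsta4*, *Fbxo2* or *Chil3*, against the distance of its summit from the start in the direction of transcription (x axis, kb, dashed line at the start), with a symbol for each of the 4 lists and 1 library per list. *Gsta4* has symbols of all 4 lists at both of its sites, *Aqp3* of WT TGF-β + IL-4 and KO control, and *Chil3* of the 2 cytokine lists.

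In KO cells under TGF-β the mean of each gene lay below that in WT, while *Aqp3* and *Fbxo2* still stood above KO control in every library. Under TGF-β, KO was called lower than WT for 5 of the 5 genes tested, all but *Chil3*, where 6.53% of 9687 genes were called lower. The differences were -4.19 ± 0.07 on the log2 scale for *Aqp3* (limma, adjusted p = 5.35e-09), -3.37 ± 0.16 for *S100a8* (adjusted p = 1.29e-06), -3.19 ± 0.10 for *Fbxo2* (adjusted p = 1.61e-07), -2.56 ± 0.22 for *S100a9* (adjusted p = 3.95e-05) and -2.41 ± 0.15 for *Gsta4* (adjusted p = 6.69e-06). *Gsta4* passed the minimum level through its WT libraries. *Chil3*, below the minimum, was at 0, 0.048 and 0 RPKM in KO mice 1 to 3 against 0.986 to 3.43 in WT. The KO and WT libraries did not overlap for these genes. The share of all genes without overlap was not counted, so no result about the members is read from this.

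Whether the effect of TGF-β itself differed between the genotypes was tested as an interaction, added after the values had been seen. In TGF-β against control, 3 of the 5 genes tested were called, with a larger effect in WT by 3.61 ± 0.17 for *Aqp3* (limma, adjusted p = 7.09e-08), 3.00 ± 0.13 for *Fbxo2* (adjusted p = 3.00e-08) and 2.14 ± 0.21 for *Gsta4* (adjusted p = 2.45e-05), where 2.85% of 9678 genes were called in that direction. For *S100a8* (1.80 ± 0.98, adjusted p = 0.32) and *S100a9* (1.65 ± 0.76, adjusted p = 0.22) the difference in effect did not pass, with the KO controls spread from 0.160 to 11.3 RPKM for *S100a8*. In TGF-β against IL-4 the same 3 genes were called among the 6 tested, against 3.21% of 9700 genes. The first interaction uses the WT control libraries of mice 1 and 3 by which the genes were chosen, and the second uses none of the choosing libraries. *Fbxo2* passed the minimum in both, and *Gsta4* in the first, only through the WT TGF-β libraries.

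Within KO cells, *Aqp3* was at 0.78, 1.49 and 1.49 RPKM in control and at 4.58, 4.21 and 3.88 under TGF-β, without overlap. The change was 1.23 ± 0.14 and did not pass (limma, adjusted p = 0.0374). In that comparison 0 of the 3 genes tested were called, against 0.0105% of 9563 genes, which was 1 gene, *Foxp3*, and 246 genes had an unadjusted p under 0.05. *Foxp3*, named after its values were seen, was at 1.36 to 1.48 RPKM in KO control and 3.92 to 4.76 under TGF-β, against 57.6 to 73.4 in WT under TGF-β. In the fit of all 24 libraries *Aqp3* passed (adjusted p = 0.00449). *Fbxo2* was at 0.076, 0.143 and 0.145 RPKM in KO control and 0.896, 1.42 and 0.929 under TGF-β, also without overlap but below the minimum level, and *Gsta4* at 0.718, 0.246 and 0.558 in control and 0.452, 0.817 and 0.150 under TGF-β, overlapping. *S100a8* in KO mice 1 to 3 was at 0.160, 0.526 and 11.3 in control and at 3.44, 2.76 and 3.38 under TGF-β. *S100a9* was at 0, 0.056 and 4.96 in control and at 0.739, 1.00 and 1.99 under TGF-β. Both were higher under TGF-β in mice 1 and 2 and lower in mouse 3.

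The rise of *Gsta4* under IL-4 was also present in KO cells. It was at 2.18, 2.22 and 2.20 RPKM in KO mice 1 to 3 under IL-4, above each of the KO controls, with a change of 1.10 ± 0.12 on the log2 scale (limma, adjusted p = 6.60e-04). It was called as 1 of 4 genes tested, against 1.5% of 9600 genes, having passed the minimum level only through its IL-4 libraries (mean 2.20 RPKM against 0.508 in control). Without mouse 3 the change was 1.13 and missed the threshold (adjusted p = 0.0101). The effect of IL-4 on *Gsta4* differed between WT and KO by 0.12 ± 0.16 (adjusted p = 0.87). In that interaction 0 of 4 genes were called, against 0% of 9668 genes called with a larger effect in WT and 794 genes at an unadjusted p under 0.05. The 4 genes called with a larger effect in KO were *Gata3*, *Socs1*, *Ralgds* and *Slc2a6*, named because of their small number. Under IL-4, KO *Gsta4* lay below WT in every library, by -0.38 ± 0.09 (adjusted p = 0.0263), which did not pass.

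Under IL-4, 0 of the 5 genes tested were called lower in KO than in WT, where 2.61% of 9679 genes were and 2718 had an unadjusted p under 0.05. The estimates were -3.19 ± 0.78 for *S100a8* (limma, adjusted p = 0.0282), -2.46 ± 0.51 for *S100a9* (adjusted p = 0.0143), -1.51 ± 0.31 for *Chil3* (adjusted p = 0.0141) and -0.48 ± 0.20 for *Aqp3* (adjusted p = 0.16). *Chil3* and *S100a9*, below 1 RPKM in KO, passed the minimum through their WT libraries. Beside them, 4 neutrophil markers were tested and 2 called lower in KO, *Cxcr2* (-0.89) and *Csf3r* (-0.63), with all 4 at an unadjusted p under 0.05 and a median of -1.10, against 0.03 over all genes. Of 6 monocyte and macrophage markers 4 were called lower, with a median of -0.83. Their part in these differences was not tested. Without KO mouse 2, whose IL-4 library had *S100a8* at 9.54 RPKM against 0 in the other two, *S100a8* (-4.32, adjusted p = 1.49e-04) and *S100a9* (-3.09, adjusted p = 0.00158) were called lower. Without WT mouse 3 *Chil3* was called (-1.93, adjusted p = 8.33e-04), and with the number as a replicate block, which pairs different animals here, *S100a9* was (adjusted p = 0.00298).

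Under both cytokines, KO *Gsta4* was at 2.10, 1.90 and 1.66 RPKM, close to the KO IL-4 values and 10.4 times lower in mean than in WT. Against KO control the change was 0.95 ± 0.14 (limma, adjusted p = 0.00638), called as 1 of 4 genes tested, against 1.27% of 9653 genes, and here too *Gsta4* passed the minimum only through the group where it was high. The call was lost with the mouse as a replicate block (adjusted p = 0.0217) and without mouse 1 (0.0737), mouse 2 (0.014) or mouse 3 (0.0717), given as adjusted p. *Aqp3* was at 3.14, 6.31 and 4.55 RPKM, with a change of 1.31 ± 0.22 that missed the threshold (adjusted p = 0.0117) and passed with the block (adjusted p = 0.00568). *Fbxo2* was at 0.680, 0.716 and 0.430, and *Chil3* at 0.414, 1.42 and 0. As a description, the KO libraries under both cytokines lay below the WT libraries for these genes. The WT libraries of mice 1 and 3 chose the genes for being high there. The share of all genes so separated was not counted, so no result about the members is read from this.

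Of 12 aquaporins 2 had a level to test, *Aqp3* and *Aqp7* (2.18 to 5.24 RPKM over the 24 libraries), and *Aqp3* was the 1 called in WT TGF-β against control. Of 24 glutathione S-transferases 12 were tested there, with 4 called higher, *Gsta4*, *Mgst3* (1.16 ± 0.09), *Mgst2* and *Gstm1* (0.60 ± 0.06), and 2 lower, *Gstt2* and *Gstt3* (-1.02 ± 0.10). Of all 9726 genes tested in that comparison, 333 were called higher and 222 lower. Under IL-4 alone *Gsta4* was the 1 called of 13. Of 18 genes of glutathione supply and the NRF2 response 15 were tested, and limma called 0 under TGF-β and 0 under IL-4, with 4 at an unadjusted p under 0.05 each. The median change of that list under TGF-β was -0.0031, against 0.01 over all genes tested.

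Of the 5 sugar-binding F-box genes 4 were tested in WT TGF-β against control and *Fbxo2* was the 1 called, while all 4 had an unadjusted p under 0.05 and their median change was 0.31, against 0.01 over all genes, with *Fbxo17* at -0.41. *Fbxo6* was at 12.9 to 22.3 RPKM in all libraries. Of 15 genes of the SCF ligase and of ER-associated degradation, the partners of FBXO2, limma called 0 under TGF-β, with 2 at an unadjusted p under 0.05. Of the 8 chitinase-like genes measured, 3 were tested and 0 called, 2 having an unadjusted p under 0.05. Among 16 S100 genes 8 were tested and 3 called higher, *S100a8*, *S100a9* and *S100a6* (0.76 ± 0.15), with 6 at an unadjusted p under 0.05 and a median change of 0.57, against 0.01 over all genes. Under TGF-β, 4 of the 8 were called lower in KO than in WT, *S100a8*, *S100a9*, *S100a6* (-0.98) and *S100a13* (-0.97), with 7 at an unadjusted p under 0.05. Of all genes tested, 3.42% were called higher in WT TGF-β against control and 6.53% lower in KO than in WT under TGF-β. Of 4 receptors for S100A8/S100A9, *Bsg* was the 1 tested and not called (unadjusted p under 0.05), and *Tlr4* stayed at or below 0.216 RPKM and *Ager* at or below 0.145.

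Genes known to answer each cytokine moved with it. Of 12 TGF-β feedback and target genes, 8 were tested in WT TGF-β against control and 7 were called higher, against 3.42% of all genes tested. Among the 7 were *Foxp3* (3.28), *Itgae* (2.06) and *Ldlrad4* (1.89 on the log2 scale). In KO against WT under TGF-β 7 of 8 were called lower, against 6.53% of all genes. In WT IL-4 against control 6 of this list were tested, so genes low without TGF-β could pass the minimum through their TGF-β libraries. Of 10 IL-4 and STAT6 targets, 8 were tested in WT IL-4 against control and 5 called higher, *Gata3* (1.72), *Ccr8* (1.31), *Nfil3* (1.05), *Cish* (0.84) and *Socs1* (0.82). Over all genes tested there, 0.930% were called higher. In KO cells 6 of 6 tested were called higher under IL-4. Of 11 genes of the alternative activation program in the table, to which *Chil3* also belongs, 4 were tested under IL-4 and 2 called, the chemokine genes *Ccl24* (2.48) and *Ccl17* (1.92). Under TGF-β 3 of this list were tested, so genes low without IL-4 could pass the minimum through their IL-4 libraries. *Ccl17* in WT was at 1.02 RPKM in control, 3.38 under TGF-β, 6.98 under IL-4 and 16.9 under both (means of 3), the order of *Chil3* in WT. In KO *Ccl17* was at 6.76 under IL-4 and 7.80 under both, where *Chil3* stayed at or below 1.42. *Ccr8* was called higher under TGF-β too (2.75).

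Over the 24 libraries, the genes whose pattern was most like that of a member on log2(RPKM + 1) were compared among 9720 genes, as a description of libraries that share mice and conditions. For *Aqp3* they were *Nt5e* (Pearson r = 0.99), which encodes the ectonucleotidase CD73, *Apol9b* (0.99) and *Apol9a* (0.98). For *Fbxo2* they were the same 3, led by *Apol9b* (1.00) and *Apol9a* (0.99), and *Aqp3* and *Fbxo2* had r = 0.99 with each other. For *Gsta4* they were *Kifc3* (0.98), *Prps1* (0.97), an enzyme of nucleotide synthesis, and *Tbc1d4* (0.96). For *Chil3* they were *Cpne3* (0.94), *Rtn3* (0.93) and *Dnase2a* (0.92). For *S100a8* they were *Ngp* (0.95), *Camp* (0.93) and *Mettl23* (0.90), and for *S100a9* *Camp* (0.95), *Ngp* (0.95) and *Spata6* (0.91). *S100a8* and *S100a9* had r = 0.98 with each other.

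*Kifc3*, the likest gene to *Gsta4*, was at means of 0.892 RPKM in WT control, 2.62 under TGF-β, 1.43 under IL-4 and 5.67 under both, and in KO at 0.533, 0.425, 1.09 and 1.06. *Apol9b* was at means of 0.246, 13.02, 0.246 and 8.92 in the same WT order, lower under both than under TGF-β as *Fbxo2* was.

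In the contrast that chose the genes, the mean log2 differences were 4.70 for *Aqp3*, 3.49 for *Gsta4*, 3.46 for *Fbxo2*, 3.42 for *Chil3* and 3.33 for *S100a8*. Just outside the 5 stood *Nt5e* at 3.25, *Gm5512* at 3.23 and *Ccl17* at 3.19, and *S100a9*, taken in as a partner, ranked 12 at 2.86.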

How the data were processed

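RNA-seq (Smart-seq2) of 24 libraries and DNase-seq of 4 were used. Reads had been mapped to mm9 with Bowtie2, and poorly mapped or redundant reads had been removed. The deposited RPKM were computed by the authors with edgeR, versions not given in the sources used here. The deposited DHS lists, called by the authors with MACS per library, hold a fold enrichment and −log10 p and q values. Columns were read in library-number order, as the table's headings conflict with the study's supplementary read counts. RPKM are not counts, so no count test was run.

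The members and gene lists were chosen with earlier results of these data known. Genes with a mean of at least 1 RPKM in the groups compared were tested with limma 3.58.1 (R 4.3.3, trended variance, log2(RPKM + 1), only the compared groups in each fit), adjusted by Benjamini-Hochberg over all genes tested and called under 0.01 with a fold change over 1.5. The fit was tested on simulated data. Named genes are the members, *Tgfbr1*, the 3 genes of highest Pearson r with each member and called genes of the lists. Other genes were named after their values were seen. Libraries of a number were read as 1 mouse, which the titles do not state. The correlation of the deviations of libraries that share a number lay between −0.09 and 0.55 in WT (median 0.06). In KO it lay between −0.30 and 0.42 (median 0.19). P-values measure the spread between these libraries. DHSs were placed by GENCODE vM1, sequences read from NCBIM37, which is mm9, and 5 of the 6 members had a RefSeq promoter. Python 3.11.15, pandas 2.3.3, numpy 2.4.6 and matplotlib 3.10.9 were used. The alternatives are named in the closing section.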

Additional observations from a re-analysis of the deposited data

Results flagged for a closer look

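For 3 of the 6 genes the effect of TGF-β differed between WT and KO cells in a test of the difference itself (limma, interaction, Benjamini-Hochberg adjustment). Against control the WT effect was larger by 3.61 on the log2 scale for *Aqp3*, 3.00 for *Fbxo2* and 2.14 for *Gsta4*. Against IL-4 it was larger by 3.71 for *Aqp3*, 3.00 for *Fbxo2* and 2.02 for *Gsta4*. In WT each of the 3 genes was higher under TGF-β than under control in 3 of 3 mice. The comparison against control uses the WT control libraries of mice 1 and 3 by which the genes were chosen, and *Fbxo2* in both comparisons and *Gsta4* in that against control passed the minimum level only through the WT TGF-β libraries. The 12 KO libraries are read by their position in the table alone.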

How the results depend on the processing

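Counts here are of members called by limma. Read under the table's headings, 0 members were called in each of the 11 comparisons, 22 of 40 member changes lost their call, and 3 turned direction: *S100a9* in WT TGF-β against IL-4 (-0.22), *Aqp3* in WT IL-4 against control (-0.0060) and *S100a9* in the interaction of TGF-β against control (-0.15). Without WT mouse 2 *Aqp3* in WT IL-4 against control was -0.18 (0.25 without mouse 3), and with a pseudocount of 0.1 *Gsta4* in the interaction of IL-4 against control was -0.14. With all 24 libraries in 1 fit, 3 members were called in WT TGF-β against control, 2 in KO TGF-β against control, 2 in KO TGF-β + IL-4 against control and 2 in KO against WT under IL-4. A minimum of 5 RPKM left 0 in WT IL-4, KO IL-4 and KO TGF-β + IL-4 against control and 1 in each of the 2 TGF-β interactions, with fewer genes tested. An adjusted p under 0.05 called 1 in KO TGF-β, 2 in KO TGF-β + IL-4 and 3 in KO against WT under IL-4. For KO TGF-β + IL-4 against control, a pseudocount of 0.1 and no minimum each gave 0, and median-ratio scaling gave 2. With the number as a replicate block, KO against WT under IL-4 gave 1, where the number pairs different animals, and the genes called in KO TGF-β + IL-4 against control fell from 185 to 88. Unless given, the cause was not tested.

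Leaving out 1 mouse gave 3 to 5 members in WT TGF-β against IL-4, 4 to 6 in WT TGF-β and 0 to 3 in WT IL-4 against control, 0 to 1 in KO IL-4, 0 in KO TGF-β and 0 in KO TGF-β + IL-4 against control, 5 to 6 in KO against WT under TGF-β, 0 to 2 under IL-4, and 3, 0 and 3 in the interactions. An arm left with 2 libraries was fitted with the pooled spread. Of all genes, WT IL-4 against control called 125, and 12 without mouse 1, 73 without mouse 2, 83 with no minimum and 80 at 5 RPKM. WT TGF-β against control called 555, and 294 without mouse 1 and 342 at 5 RPKM. WT TGF-β against IL-4 called 685, and 429 at 5 RPKM. KO IL-4 against control called 241, and 121 without mouse 1, 154 with no minimum and 153 at 5 RPKM. KO TGF-β + IL-4 against control called 185, and 32 without mouse 1, 37 without mouse 3, 99 with no minimum and 278 in 1 fit. KO against WT called 938 under TGF-β and 591 at 5 RPKM, and 289 under IL-4 and 149 with no minimum. The interactions called 456 (TGF-β against control) and 509 (TGF-β against IL-4), and 284 and 328 at 5 RPKM. KO TGF-β against control called 1, and 0 to 6 under the alternatives, and the IL-4 interaction 4, and 0 to 15. Of the alternative values of the 40 member changes, 160 of 176 without a mouse and 317 of 338 under settings other than the headings kept direction and side of the threshold. DHSs within 10 kb of a member's start numbered 28, and 24 at −log10 q of at least 5, 24 with lists of equal length and 91 within 50 kb. Low read numbers of *Chil3*, *Fbxo2* and *Gsta4* in KO cells limit what could be detected there.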
